A study of Mus musculus with 9 samples.

Results

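The genes described here encode the subunits of nuclear RNA polymerases I, II and III. They were taken by name, as every row of the expression table whose symbol starts with Polr1, Polr2 or Polr3 followed by a letter. This gave 28 of 23951 genes, of which 5 are named for polymerase I, 13 for polymerase II and 10 for polymerase III. They were followed in 9 RNA-seq libraries of mouse mammary epithelial cells, in 3 genotypes of 3 libraries each. All mice were females of a mixed genetic background and carried Rosa26-Stop-YFP (R26Y), a reporter that makes yellow fluorescent protein once Cre recombinase has removed its stop sequence. All received Ad-K8-Cre into the milk ducts, an adenovirus in which, by its name, keratin 8 sequences drive Cre, and YFP+ cells were sorted 1 month later. The WT group had the reporter alone, the p53-null group also had Trp53L/L, and the p53/Brca1-null group had Trp53L/L and Brca1L/L. Age is not given. Whether a group's libraries stem from different mice is not stated either, and p-values then reflect only library-to-library spread, which may be technical.

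Polymerase I transcribes the large ribosomal RNA precursor in the nucleolus. Polymerase II makes messenger RNA, and polymerase III makes transfer RNA, 5S ribosomal RNA and other short RNAs. The enzymes are built alike: large subunits form the catalytic cleft, a set of small subunits is common to all, and an assembly pair encoded by Polr1c and Polr1d is shared by polymerases I and III. By that use, 3 of the 28 genes belong to polymerase I, 2 to I and III, 8 to II, 10 to III and 5 to all enzymes. Growing cells are known to raise ribosomal and transfer RNA synthesis, and p53 is known to restrain polymerases I and III.

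The deposited values name no unit and were taken as FPKM, fragments scaled by transcript length and by library total. On that assumption levels of different genes can be set side by side, with caution. Log2 differences are differences of log2(FPKM + 1), which understates changes of low genes. Sums over all genes lay between 359976 and 433880 FPKM. Absolute read depth is unknown. Relative depth, read from the spacing of the smallest values, lay between 0.788 (WT replicate 1) and 1.11, a range of 1.41 times. Only ratios close to equal depth were searched, so a much wider range could not have been found. Each estimate rested on few genes, from 14 (p53-null replicate 1) to 34 (WT replicate 1). Libraries also differed in how many genes reached 1 FPKM, with 4839, 7320 and 6105 in WT, 6286, 9146 and 9767 in p53-null and 7332, 8213 and 7473 in p53/Brca1-null. The luminal keratins Krt8 and Krt18 were high in every library, between 1136 and 4385 FPKM and between 1460 and 6009 FPKM. Some other luminal markers were low. Kit was at most 0.411 FPKM, and Elf5, Esr1 and Pgr were listed at 0 in some libraries. Some immune markers were also high, with Lyz2 between 503 and 3313 FPKM. Others were low, with Ptprc at most 14.5 FPKM, Cd3e at most 8.87 and Cd79a at most 7.12. Trp53 did not separate the groups (WT libraries 2.77, 25.5 and 1.35 FPKM, p53-null libraries 55.7, 0.858 and 20.3, p53/Brca1-null libraries 23.7, 26.5 and 1.88) and Brca1 was listed at 0 in all libraries but p53-null replicate 1 (0.00559 FPKM), so genotypes are taken from the labels. Values per gene do not separate reads inside and outside deleted exons.

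Polr1c stood out among the 28 genes. It encodes the larger partner of the assembly pair of polymerases I and III. In the WT libraries it was listed at 0, 0 and 0.0337 FPKM. In p53-null it stood at 51.8, 23.2 and 42.1 FPKM, and in p53/Brca1-null at 13.7, 15.6 and 12.4 FPKM. All 6 null libraries lay above all WT libraries, and the p53-null libraries lay above the p53/Brca1-null ones. Polr1c was singled out for study because of these values, so its tests describe these libraries and are not independent support. The log2 difference was 5.24 ± 0.90 (SE) for p53-null against WT (adjusted p of 0.110 by limma) and 3.88 ± 0.90 for p53/Brca1-null against WT (adjusted p of 0.0799 by limma). These comparisons share the WT libraries. For the mean of both null genotypes against WT it was 4.56 ± 0.78 (adjusted p of 0.0186 by limma). That call was lost without p53-null replicate 2 (adjusted p of 0.0592 by limma) or 3 (0.0744), or without p53/Brca1-null replicate 1 (0.0669) or 2 (0.0714). Between the null genotypes it was -1.36 ± 0.90 (adjusted p of 0.999 by limma), which did not pass although the libraries did not overlap.

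**Figure D1:**
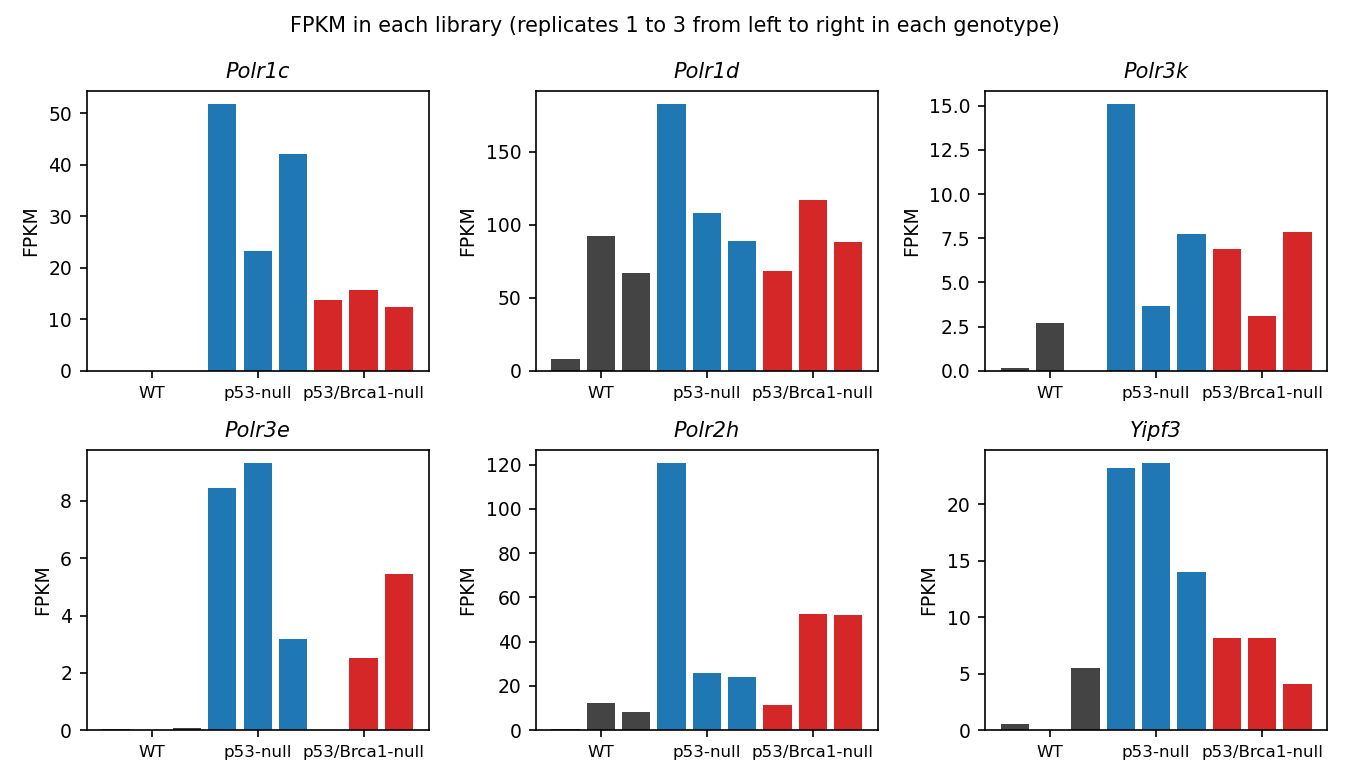
FPKM of 5 subunit genes and of Yipf3, the neighbour of Polr1c, with 1 bar per library (WT dark grey, p53-null blue, p53/Brca1-null red; each panel has its own scale from 0). Polr1c had no visible bar in WT, where its highest value was 0.0337 FPKM, while its partner Polr1d reached 92.2 FPKM there.

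Its partner did not share the pattern. Polr1d, the smaller subunit of the pair, had FPKM values of 8.07, 92.2 and 67.1 across WT, of 183, 108 and 89.1 across p53-null, and of 68.1, 117 and 88.4 across p53/Brca1-null libraries. The groups overlapped, and WT replicate 1 alone lay far below the rest. The log2 difference from WT was 1.66 ± 0.75 in p53-null (adjusted p of 0.404 by limma), and it was 0.61 without WT replicate 1. In WT replicate 2 Polr1d stood at 92.2 FPKM where Polr1c was listed at 0.

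The question whether Polr1c was alone was put as a rule: under 1 FPKM in all 3 WT libraries and at 10 FPKM or more in all 6 null libraries. Polr1c was the 1 member of 25 tested that met it, against 11 genes (0.116%) of the 9503 tested. At 5 FPKM in the null libraries Polr1c was again the 1 member, against 36 genes (0.379%), and at 1 FPKM again, against 1.29% of all. A gene that meets this rule had to pass the filter on low values through the null libraries. Among the subunits it was alone in the pattern, and among all genes it was not. The other 10 genes were Mrpl42, Mrpl2, Stoml2, Qdpr, Lsp1, Egfl7, Rab13, Cd209g, Rarres2 and 2210013O21Rik. Mrpl42 and Mrpl2 encode mitochondrial ribosomal proteins, Stoml2 a mitochondrial inner membrane protein, Egfl7 an endothelial secreted protein and Lsp1 a leukocyte protein. Without WT replicate 1, which had the fewest genes at 1 FPKM, the rule took 13 genes and again 1 member.

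A looser measure of likeness was the Pearson correlation of log2(FPKM + 1) with Polr1c over the 9 libraries, which share depth and detection and are given as a description. Over the 24 other tested subunits the median r was 0.08, against 0.23 over all other tested genes, with 14 subunits above 0 and 10 below. The most alike was Polr3k, with r = 0.85 and rank 167 of 9502, then Polr3e (0.80, rank 355) and Polr2h (0.77, rank 476). Polr1d followed at 0.62 and rank 1275. The least alike was Polr2a, the largest subunit of polymerase II, at -0.72 and rank 9397. The 5 genes with the highest r were none of the subunits: Bag2 (0.99), a co-chaperone, Tfpt (0.99), Wnt11 (0.99), a secreted Wnt ligand, Sf3a1 (0.99), a splicing factor subunit, and Mrps22 (0.98), a mitochondrial ribosomal protein. Bag2 was listed at 0, 0 and 0.414 FPKM in the WT libraries, with 12.5 to 26.2 FPKM for p53-null and 7.93 to 11.4 for p53/Brca1-null. Mrps22 was listed at 0 in each WT library and reached 8.60 to 20.6 FPKM in the 6 null libraries. Of the other tested genes, 345 (3.63%) had r of 0.8 or more.

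**Figure D2:**
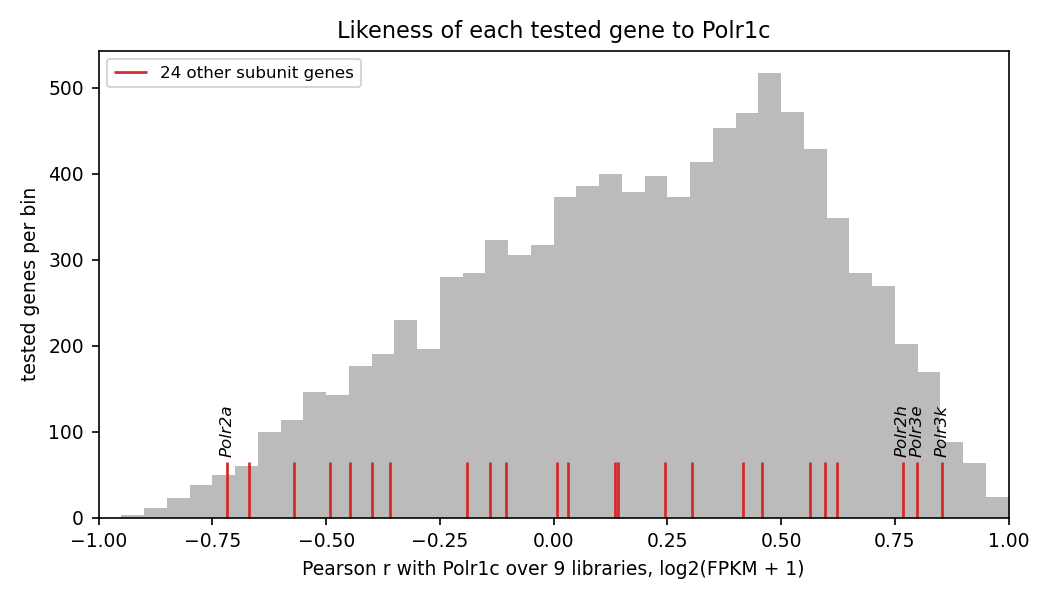
Histogram of Pearson r with Polr1c over 9 libraries for all other tested genes (grey, bins of equal width), with the 24 other tested subunit genes as red lines. The subunits spread from -0.72 (Polr2a) to 0.85 (Polr3k), across nearly the whole range of all genes.

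Polr1c lies back to back with Yipf3, a Golgi membrane protein gene, and the stretch between both genes as GENCODE M21 bounds them is shown because the neighbour had values of a like shape. It was read from the RefSeq promoter table (GRCm38.p6, a build other than the mm9 named for the expression table, which holds no coordinates) and covers chr17:46248055-46248079 on the minus strand, 25 bases that no annotated exon covers and that end 9 bases before the RefSeq start of Polr1c, with no capitals since none of the motifs searched lies in it:
Polr1c: gaaggacgtggacagaggcggggca
Yipf3 had FPKM values of 0.518, 0 and 5.55 across WT, of 23.2, 23.6 and 14.0 across p53-null, and of 8.14, 8.14 and 4.08 across p53/Brca1-null libraries. As for Polr1c, the p53-null libraries were highest, but here p53/Brca1-null replicate 3 lay below WT replicate 3. The log2 difference of Yipf3 was 3.27 ± 0.99 for p53-null against WT (adjusted p of 0.202 by limma) and 1.81 ± 0.99 for p53/Brca1-null against WT (adjusted p of 0.477 by limma), so neither passed. Its r with Polr1c was 0.85 over 9 libraries, at rank 171 of 9502. Exons of Polr1c and Yipf3 do not overlap in GENCODE M21. Yipf3 was looked at after the values of Polr1c were known. In all, 9 of the 28 subunit genes have a protein-coding gene that starts within 1000 bases in the opposite direction. For the 7 such pairs in which both genes were tested, r ran from -0.29 to 0.85 with a median of 0.02, and the pair of Polr1c was the highest.

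The other subunits named for polymerase I were low and uneven. Polr1a, the largest subunit, had FPKM values of 49.5, 2.84 and 0.00627 across WT, of 0, 0.689 and 1.08 across p53-null, and of 3.38, 1.13 and 1.09 across p53/Brca1-null libraries. WT replicate 1 was 1 library far above all others, and WT replicate 3 was near 0. The p53/Brca1-null libraries lay above the p53-null ones without overlap, with a log2 difference of 0.82 ± 1.17 that did not pass (adjusted p of 0.999 by limma). It was 0.47 without p53/Brca1-null replicate 1 and 0.52 without p53-null replicate 1. Polr1b, the second largest, was under 1 FPKM in 7 libraries, with a highest value of 2.18 FPKM, and was not tested. Polr1e, which helps to hold the enzyme at its template, was listed at 0 in 4 libraries and was highest in WT replicate 3 at 14.5 FPKM. So the pattern of Polr1c was not seen in Polr1a, Polr1b or Polr1e. The polymerase I subunits Znrd1, Twistnb and Cd3eap have other symbols and lie outside the 28 genes. Znrd1 stood at 78.5, 0 and 0.0772 FPKM across WT and at 23.2 to 57.4 in the null libraries. WT replicate 1 kept it out of the pattern. Twistnb (0.906 to 14.2 FPKM in WT, 2.84 to 15.5 in the null libraries) and Cd3eap (0.522 to 5.34 and 1.63 to 21.3) overlapped.

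Polymerase III subunits leaned upward in p53-null but none passed. Of 8 tested genes named for it, 7 had a positive log2 difference from WT in p53-null, with a median of 1.10, against a median of 0.58 and 70.2% positive over all genes. In p53/Brca1-null it was 5 of 8, with a median of 0.49 against 0.41 and 63.6% positive. With quantile normalization, which brought the median of all genes to -0.04 in both, it was 4 of 8 in either comparison. Polr3k, a small subunit that aids RNA cleavage at termination, had FPKM values of 0.157, 2.72 and 0 across WT, of 15.1, 3.69 and 7.73 across p53-null, and of 6.90, 3.11 and 7.84 across p53/Brca1-null libraries. With Polr1c it was the other subunit for which all 6 null libraries lay above all WT libraries. Its log2 difference for both null genotypes against WT was 2.22 ± 0.84 and did not pass (adjusted p of 0.256 by limma), and it was 1.44 with quantile normalization.

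Polr3e, a subunit of polymerase III that acts at initiation and termination, came nearest to Polr1c in being close to 0 in WT. It had FPKM values of 0.0240, 0 and 0.0750 across WT, of 8.45, 9.32 and 3.19 across p53-null, and of 0, 2.52 and 5.46 across p53/Brca1-null libraries. The p53-null libraries lay above WT without overlap, while p53/Brca1-null replicate 1, listed at 0, kept it out of the pattern of Polr1c. Its log2 difference was 2.85 ± 0.91 for p53-null against WT (adjusted p of 0.229 by limma) and 1.80 with quantile normalization. Polr3e passed the filter on low values through its null libraries, as Polr1c did. The upstream stretch of Polr3e is shown because it holds the B box, an element of transfer RNA genes that the polymerase III factor TFIIIC binds. Transfer RNA genes were left out when other genes in this window were looked up. Whether the B box is part of such a gene, and not of the promoter of Polr3e, was not tested. It covers chr7:120917528-120917743 of GRCm38.p6 on the plus strand (RefSeq), ends 34 bases before the RefSeq start, where an annotated exon begins, and has the B box (GGTTCGA, any 2 bases, then CC) and GC boxes (GGGCGG) in capitals:
Polr3e: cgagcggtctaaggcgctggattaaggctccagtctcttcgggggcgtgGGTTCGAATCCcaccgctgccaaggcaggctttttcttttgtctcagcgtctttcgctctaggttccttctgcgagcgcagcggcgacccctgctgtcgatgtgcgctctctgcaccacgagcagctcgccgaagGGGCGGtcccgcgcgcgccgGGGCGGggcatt
The B box letters occur in 40 of 32851 RefSeq promoter windows of 300 bases (0.122%), searched on both strands.

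Of the subunit genes, 22 matched that table, and their windows were searched for other motifs. GC boxes (GGGCGG) were found for 14 of 22 genes (35.7% of all promoter windows) and the ETS core (CCGGAAGT) for 5 (3.89%). The E box (CACGTG) was found for 4 (7.15%), TCTCGCGA for 2 (0.995%) and the TATA box (TATAAA) for 2 (13.6%). A gene counts once if any of its windows holds the motif, while the percentages are over single windows, so these shares are not strictly alike. None of these motifs contains another. The ETS core and TCTCGCGA both occur in promoter windows of Polr1c, outside the 25 bases shown. The ETS core also occurs at Polr1e, Polr2f, Polr2j and Polr3b, which did not follow Polr1c (r from -0.67 to -0.10). The p53 response element without spacer was found for 0 of 22 genes and in 3 (0.00913%) of all windows.

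The remaining polymerase III subunits varied from library to library. Polr3d had FPKM values of 1.39, 17.7 and 2.63 across WT and of 1.19, 18.9 and 7.03 across p53-null libraries. Across p53/Brca1-null libraries they were 2.88, 5.57 and 2.82. The null libraries overlapped WT, and in each genotype replicate 2 was the highest. The catalytic subunits Polr3a and Polr3b were at most 3.36 and 8.31 FPKM, and Polr3c was listed at 0 in 2 libraries and reached 12.2 FPKM. Polr3g and Polr3gl are alternative forms of one subunit. Polr3g stayed under 1 FPKM in every library, with a highest value of 0.961, while Polr3gl reached 5.30 FPKM. How reads were shared between these forms is not given in the sources used here, so their values are uncertain. Polr3f was listed at 0 in 4 libraries, reached 7.25 FPKM and, like Polr3g, was not tested.

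The genes named for polymerase II had the highest summed level, and none passed a test. Their 13 genes summed to 774, 679 and 1233 FPKM across WT, 912, 580 and 584 across p53-null and 724, 607 and 683 across p53/Brca1-null libraries. Of these, the 5 genes common to all enzymes, which are counted only here, made up 423, 345 and 752 FPKM across WT. The sums of the genes named for polymerase I were 57.7, 95.2 and 81.8, then 235, 134 and 136, then 87.1, 139 and 104 FPKM. Most of it was Polr1d except in WT replicate 1, where Polr1a made up 49.5 FPKM. Those named for polymerase III came to 32.2, 26.7 and 5.92, then 35.3, 62.1 and 32.6, then 22.04, 21.9998 and 31.1 FPKM. By name, all 3 WT libraries lay below the p53-null libraries for polymerase I and for III, while for polymerase II the groups overlapped. For III the nearest values were 32.2 and 32.6 FPKM. The sums for I include Polr1c and Polr1d, which polymerase III also uses. Genes used by polymerase I alone summed to 49.6, 2.98 and 14.6 FPKM across WT and 0.0731, 2.06 and 5.04 across p53-null libraries. Across p53/Brca1-null libraries they summed to 5.33, 6.39 and 3.27 FPKM. For polymerase II, 6 of 13 genes had a positive log2 difference in p53-null and 5 of 13 in p53/Brca1-null, with medians of -0.29 and -0.16.

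**Figure D3:**
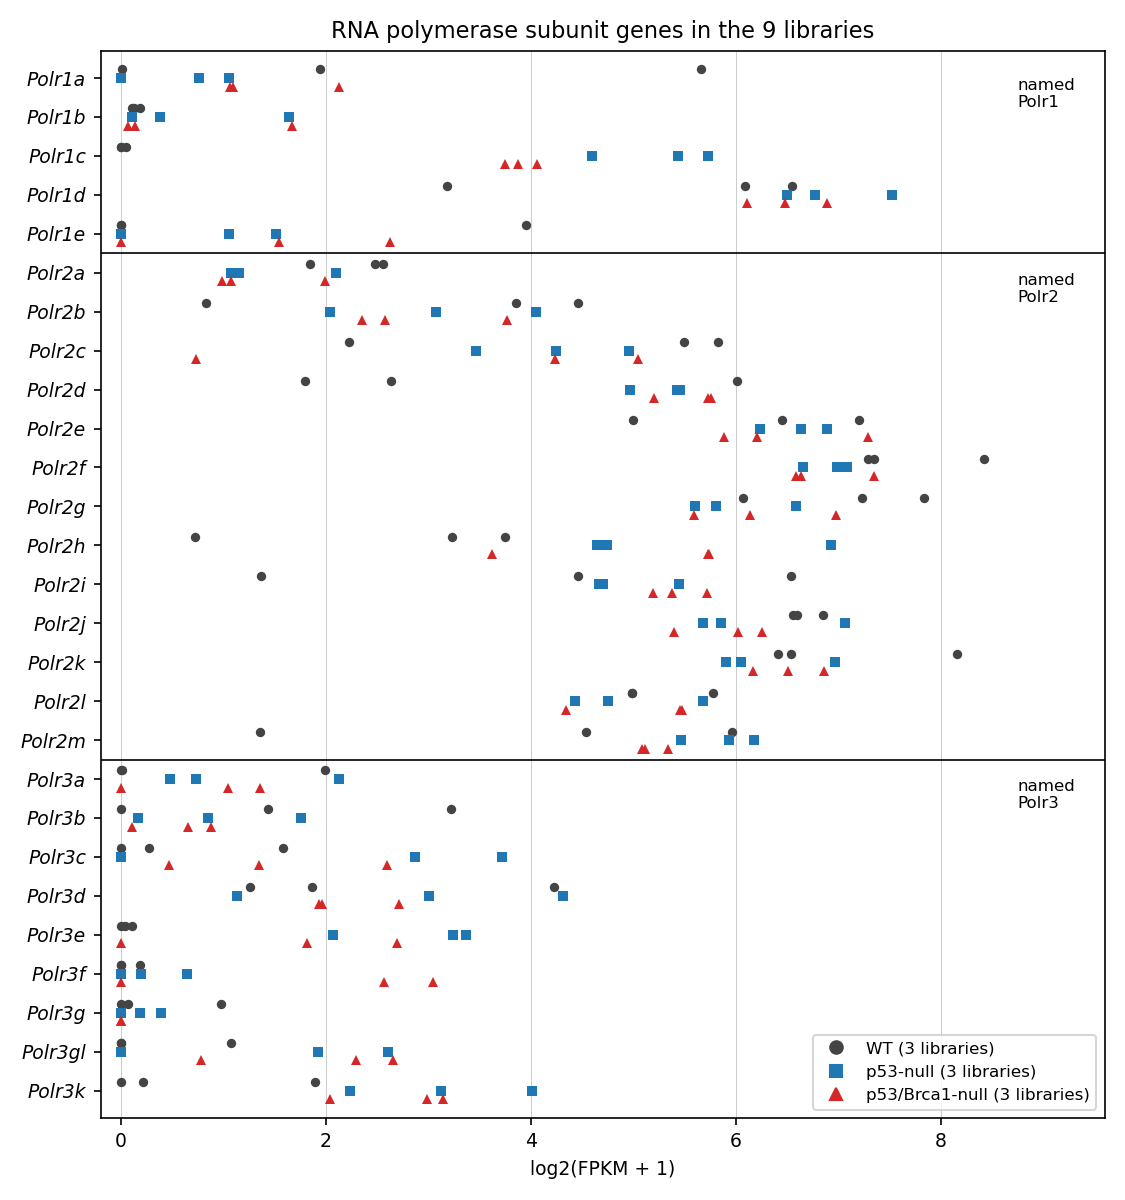
log2(FPKM + 1) of 27 of the 28 subunit genes, 1 symbol per library (WT circles, p53-null squares, p53/Brca1-null triangles), in blocks by gene name. Polr1c is the gene whose 3 WT circles sit at 0 while its 6 null symbols, from 12.4 to 51.8 FPKM, lie far to the right.

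Polr2h, a subunit common to all polymerases, was the polymerase II gene with the largest difference. It had FPKM values of 0.653, 12.4 and 8.36 across WT, of 121, 25.7 and 24.02 across p53-null, and of 11.3, 52.3 and 52.1 across p53/Brca1-null libraries. The p53-null libraries lay above WT, whereas p53/Brca1-null replicate 1 fell within the WT range. The log2 difference was 2.87 ± 1.03 for p53-null (adjusted p of 0.283 by limma) and 2.47 ± 1.03 for p53/Brca1-null (adjusted p of 0.357 by limma), the latter 1.55 without WT replicate 1. Polr2d, which pairs with Polr2g in a stalk on polymerase II, had FPKM values of 5.19, 63.4 and 2.48 across WT, of 41.8, 42.9 and 30.2 across p53-null, and of 35.7, 52.1 and 53.01 across p53/Brca1-null libraries. WT replicate 2 was above every null library, so the groups overlapped, and the log2 difference in p53/Brca1-null was 2.08 ± 0.96 (adjusted p of 0.399 by limma). It was 3.35 without WT replicate 2 and 1.24 without WT replicate 3.

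Other common subunits went the opposite way or showed no order. Polr2f had FPKM values of 162, 155 and 342 across WT, of 135, 126 and 99.5 across p53-null, and of 162, 98.5 and 95.4 across p53/Brca1-null libraries. It had the highest mean of the 28 genes, and all p53-null libraries lay below all WT libraries, with a log2 difference of -0.78 ± 0.48 (adjusted p of 0.531 by limma) that was -0.41 without WT replicate 3. Polr2k had FPKM values of 84.03, 92.2 and 284 across WT, of 125, 65.3 and 58.9 across p53-null, and of 115, 70.7 and 90.04 across p53/Brca1-null libraries, with WT replicate 3 above the rest as for Polr2f. Of the 5 subunits common to all enzymes, 2 had a positive log2 difference in either null genotype. Polr2j, a small polymerase II subunit of the assembly platform, had FPKM values of 93.3, 114 and 95.5 across WT, of 133, 50.3 and 56.8 across p53-null, and of 63.9, 75.2 and 41.1 across p53/Brca1-null libraries. It lay lower in p53/Brca1-null than in WT without overlap, with a log2 difference of -0.78 ± 0.57 (adjusted p of 0.596 by limma), or -0.46 with detected genes as a covariate. Polr2m, an inhibitor bound to a part of polymerase II, had FPKM values of 1.57, 22.2 and 61.5 across WT, of 43.2, 60.1 and 71.1 across p53-null, and of 33.6, 39.5 and 32.9 across p53/Brca1-null libraries. It was lower in p53/Brca1-null than in p53-null without overlap, with a log2 difference of -0.68 ± 0.96 (adjusted p of 0.999 by limma), or -0.30 with that covariate. The other polymerase II subunits apart from Polr2a (Polr2b, Polr2c, Polr2e, Polr2g, Polr2i and Polr2l) ranged from 0.658 FPKM for Polr2c to 227 for Polr2g, and their groups overlapped in every comparison.

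Polr2a, the largest polymerase II subunit, whose tail carries the heptad repeats, was the lowest of its 13 genes by median, with FPKM values of 4.87, 2.60 and 4.56 across WT, 1.22, 3.28 and 1.10 across p53-null and 2.96, 1.10 and 0.978 across p53/Brca1-null libraries. Levels of subunits of 1 enzyme thus differed widely within libraries, as between Polr2a and Polr2f at 4.87 and 162 FPKM in WT replicate 1. Levels fell with transcript length: over the 28 genes Spearman's rho between the longest protein-coding transcript (601 to 9216 bases, GENCODE M21) and the mean of log2(FPKM + 1) was -0.78. The same rho was -0.38 over the 8845 tested genes with a length. These are descriptions across genes, which are not independent replicates.

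**Figure D4:**
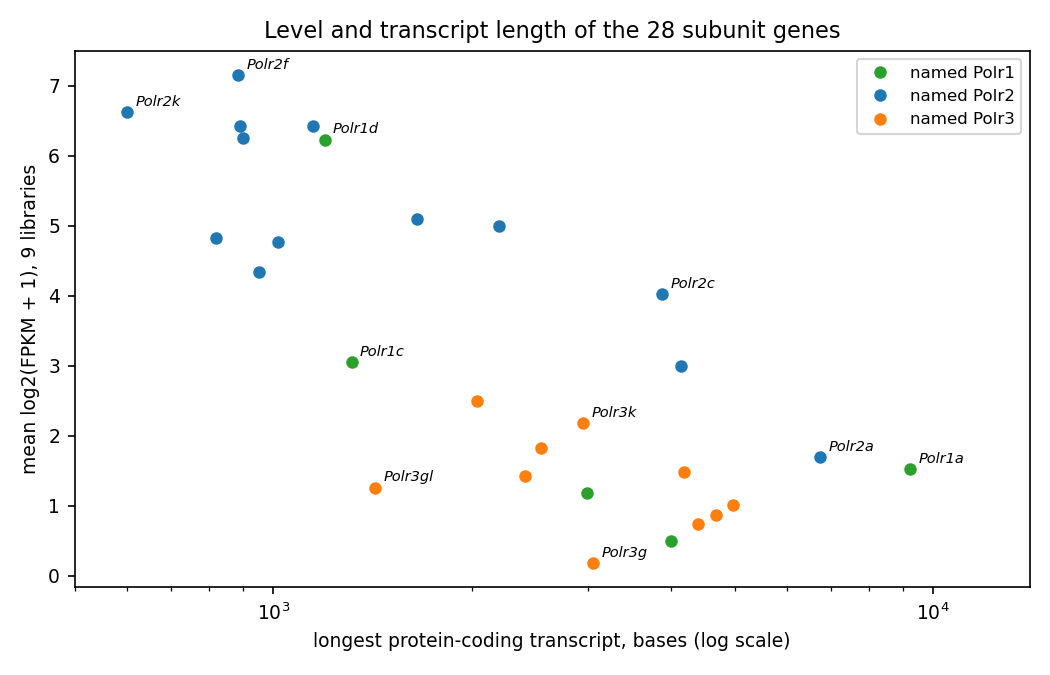
Mean log2(FPKM + 1) over 9 libraries against the longest protein-coding transcript (log scale) for the 28 subunit genes, coloured by name. Genes of about 1000 bases or less lie above 4, while Polr1a (9216 bases) and Polr2a (6740 bases) lie at 1.52 and 1.69.

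Detection differed between libraries for these genes as for all genes. The number of the 28 at 1 FPKM or more was 17, 19 and 17 in WT, 19, 23 and 25 in p53-null and 22, 22 and 22 in p53/Brca1-null. Beside it, the share of all 9503 tested genes at 1 FPKM or more was 49.3%, 72.6% and 61.1%, then 62%, 87.9% and 92%, then 72.4%, 79.9% and 73.2%. In all, 11 of the 28 genes were listed at 0 in at least 1 library: Polr1a, Polr1c, Polr1e, Polr3a, Polr3b, Polr3c, Polr3e, Polr3f, Polr3g, Polr3gl and Polr3k. None of the 13 named for polymerase II was. Of the 25 tested, 36% had a 0 in some library, against 41.6% of all tested genes. Since cells need these enzymes, a listed 0 can be a missed transcript, and in bulk samples fewer cells with a transcript and less of it per cell cannot be told apart. Each library's detected-gene number was also added to the fit. That number was mostly lower in WT, so this fit cannot tell detection and genotype apart. The log2 difference of Polr1c for both null genotypes was then 4.76, and it no longer passed (adjusted p of 0.158 by limma). Over all genes 1 was then called in place of 28. The part of detection in the difference of Polr1c was not tested.

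Across the family, counts past the tests were set against all genes. For p53-null against WT 0 of 25 passed (0.0105% of all genes did). At an unadjusted limma p under 0.05, 5 were higher (Polr1c, Polr3e, Polr2h, Polr3k and Polr1d; 10.8% of all genes) and 0 lower (0.989%). Groups did not overlap for 4 higher (14.1%) and 1 lower (2.16%). For p53/Brca1-null against WT 0 passed (0.253%). At the unadjusted threshold 3 were higher (Polr1c, Polr2h and Polr2d; 10.1%) and 0 lower (2.09%), and 2 higher (12.7%) and 1 lower (3.83%) did not overlap. The counts without overlap lie near the shares over all genes.

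For p53/Brca1-null against p53-null 0 of 25 passed limma (0% of all genes), with 0 higher (1.85%) and 0 lower (2.88%) at the unadjusted threshold. Groups did not overlap for 1 higher gene, Polr1a (4.87%), and 2 lower genes, Polr1c and Polr2m (8.02%). For both null genotypes against WT 1 passed, Polr1c (0.295% of all genes). At the unadjusted threshold 6 were higher (12.4%) and 0 lower (1.76%), and the groups of 2, Polr1c and Polr3k, did not overlap (5.84%), with 0 lower (0.905%). Over all 25 the median log2 difference was 0.37, 0.07 and -0.31 in the comparisons of p53-null with WT, p53/Brca1-null with WT and p53/Brca1-null with p53-null. The medians of all genes were 0.58, 0.41 and -0.16. For p53-null against WT 15 of 25 subunits were positive (60%), and 11 of 25 (44%) with quantile normalization. Polr1c kept log2 differences of 4.75 and 3.38 in the 2 comparisons with WT under that scaling.

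**Figure D5:**
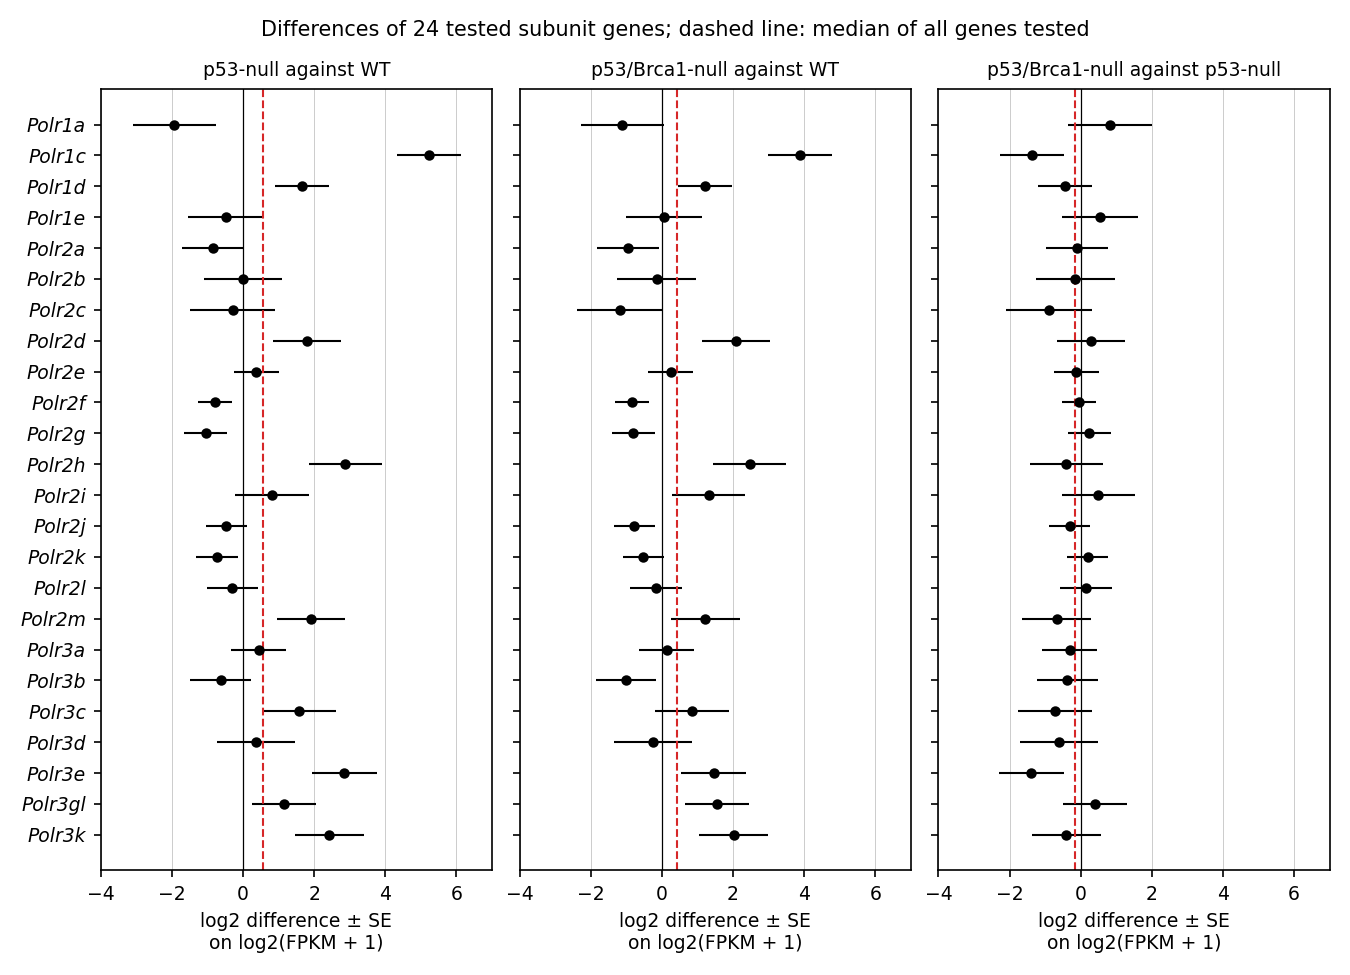
Log2 difference with its standard error (limma, all 9 libraries) for 24 of the 25 tested subunit genes in 3 comparisons, with the median of all tested genes as a dashed line. Polr1c lies at 5.24 and 3.88 in the comparisons with WT, apart from the other 23 genes, whose highest value is 2.87 (Polr2h).

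The factors that work with the polymerases were read from lists of their genes. Of 16 tested polymerase I factors, nucleolar genes and polymerase I subunits under other symbols, none passed in any comparison by limma. At an unadjusted limma p under 0.05, 4 were higher (10.8% of all genes) and 0 lower (0.989%) in p53-null. In p53/Brca1-null 2 were higher (10.1%) and 0 lower (2.09%). The smallest p was that of Tcof1, the nucleolar factor treacle, which promotes ribosomal RNA synthesis. Mutations of its human counterpart and of those of Polr1c and Polr1d are known causes of Treacher Collins syndrome. Tcof1 had FPKM values of 0.159, 0.0358 and 0.0172 across WT, of 12.7, 4.07 and 4.18 across p53-null, and of 9.09, 7.06 and 1.62 across p53/Brca1-null libraries. All WT libraries lay under 1 FPKM and all null libraries above it, with a log2 difference for both null genotypes of 2.61 ± 0.80 (adjusted p of 0.170 by limma). Between the null genotypes the smallest p was that of Fbl, the ribosomal RNA methyltransferase fibrillarin, with a log2 difference of -0.98 ± 0.77 (adjusted p of 0.999 by limma). The median of this list was 0.80 in p53-null, against 0.58 for all genes.

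Of 43 tested polymerase II initiation and elongation factors, 1 passed for both null genotypes against WT and none in the other comparisons. It was Taf13, a subunit of the initiation factor TFIID, with WT libraries at 0, 0.507 and 1.68 FPKM, p53-null libraries at 72.0, 38.0 and 14.9, and p53/Brca1-null libraries at 24.2, 34.3 and 43.5. Its log2 difference was 4.45 ± 0.81 (adjusted p of 0.0250 by limma), and its r with Polr1c was 0.92, at rank 50. At the unadjusted threshold 4 of the 43 were higher and 0 lower in p53-null, and 3 higher and 0 lower in p53/Brca1-null, beside the same 10.8% and 10.1% higher of all genes, so these counts were no larger a share than over all genes. Tbp, the TATA-binding protein used by all polymerases, had the smallest p between the null genotypes, at 26.1, 7.04 and 9.39 FPKM for p53-null against 0.351, 1.72 and 1.15 in p53/Brca1-null (adjusted p of 0.582 by limma). WT libraries of Tbp stood at 0.0290, 1.26 and 0 FPKM.

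Of 16 tested polymerase III factors none passed. At the unadjusted threshold 3 were higher and 0 lower in p53-null, and 1 higher and 0 lower in p53/Brca1-null, again beside 10.8% and 10.1% higher of all genes. Their median log2 differences were 0.60 and -0.10, against 0.58 and 0.41 over all genes. Gtf3c4, a TFIIIC subunit, had the smallest p in p53-null, with WT libraries at 0.0104, 0.179 and 0.0163 FPKM and p53-null libraries at 3.10, 2.04 and 2.58 (adjusted p of 0.353 by limma), while p53/Brca1-null libraries stood at 0.0316, 0.147 and 3.05. Snapc5, part of the complex that starts small nuclear RNA genes, had it in p53/Brca1-null, with WT libraries at 0.769, 16.0 and 0 FPKM against 37.9, 18.9 and 31.2 (adjusted p of 0.231 by limma). Between the null genotypes it was Snapc2 of the same complex, with a log2 difference of -2.22 ± 1.13 (adjusted p of 0.999 by limma).

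Luminal markers (14) summed to 5798 to 9316 FPKM in the WT libraries, 3580 to 15356 for p53-null and 4801 to 7044 for p53/Brca1-null, and 11 basal markers to 368 to 684, 339 to 1620 and 437 to 632 FPKM, with none passing. Of the other cell types' marker sums, the immune sum of the p53/Brca1-null libraries lay above those of the other groups, and the rest overlapped. The 14 immune markers in the table summed to 2750 to 8091 FPKM across WT, 2952 to 6419 across p53-null and 8995 to 14486 across p53/Brca1-null libraries, where H2-Aa was the 1 of 13 tested that passed. The 8 endothelial markers summed to 0.543 to 151, 34.8 to 607 and 48.1 to 197 FPKM, with Pecam1 at 0, 0.0338 and 28.2 in the WT libraries, and 1 of 7 tested, Egfl7, passed for both null genotypes. The 7 adipocyte markers summed to 127 to 1566, 638 to 5301 and 333 to 1442 FPKM. Most of that was Fabp4 (120 to 5145 FPKM), while Plin1 and Lep were at 0 in every library. None of the 3 tested passed, though all 3 had positive log2 differences for both null genotypes against WT. The smallest p there was that of Car3 (3.98 ± 0.83, adjusted p of 0.0533 by limma). The 6 fibroblast markers summed to 71.1 to 200.2, 81.0 to 136.5 and 47.3 to 458 FPKM, with none of 5 passing. The part of these cells in the values of Polr1c and the other subunits was not tested. Of the subunit genes, 9 share exonic positions with a gene on the other strand in GENCODE M21 (among them Polr1a, Polr2b, Polr2c, Polr2f, Polr2i, Polr2j, Polr3b and Polr3gl). Where counting did not use strand, which is not given in the sources used here, their values are uncertain, while Polr1c, Polr1d, Polr2h, Polr3e and Polr3k have no such overlap.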

How the data were processed

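The authors deposited 1 table of 24043 rows and 9 library columns. Its header names no unit; the deposited values were taken as FPKM, since they are not whole, sum to different totals and step with the gene at low values. Per the labels' protocols, Trizol was used for RNA of the sorted cells, then a SMARTer v4 low-input mRNA kit for sequencing libraries. The build was mm9 per the submitters' processing notes. Which aligner, quantifier and gene models were used is not given in the sources used here. All 92 spike-in rows were left out.

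Tested genes had 3 or more libraries at 1 FPKM or above (9503, among them 25 of the 28 subunits). Using R 4.3.3, limma 3.58.1 modelled log2(FPKM + 1) of all 9 libraries with 1 coefficient per genotype (6 residual degrees of freedom), an intensity trend and robust moderation. The fit was checked on simulated data. All tests are two-sided. Benjamini-Hochberg adjustment ran over all tested genes, with calls at 0.05. Named were Polr1c, subunits that passed, had an unadjusted p under 0.05 or did not overlap, the 2 highest per polymerase (1 subunit is counted but not reported by name here), the 5 genes most like Polr1c, and listed factors that passed or had the smallest p. Polr2a, Yipf3 and others were chosen after their values were seen. Members and lists were chosen with earlier results of these data known. Relative depth is the commonest ratio of values under 0.1 FPKM to those of p53-null replicate 3, among ratios within a set window around equal depth. Alternatives were a pseudocount of 0.1, no filter, a filter of 5 FPKM, quantile normalization, a covariate for detected genes, a replicate block, no trend, the libraries compared alone and each library left out.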

Additional observations from a re-analysis of the deposited data

How the results depend on the processing

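The 20 subunit differences followed had passed, had an unadjusted limma p under 0.05 or did not overlap in these same libraries. A stable sign is thus no independent support. None changed sign in 333 alternative values, and 323 values kept their side of the threshold, which mostly meant staying uncalled. The exceptions were all of Polr1c. For both null genotypes against WT it was no longer called with a covariate for detected genes (limma adjusted p = 0.158), without p53-null replicate 2 (0.0592) or 3 (0.0744), or without p53/Brca1-null replicate 1 (0.0669) or 2 (0.0714), over a range from 0.00603 to 0.158. For p53-null against WT it passed with a pseudocount of 0.1 (0.0308), without trend (0.0200) and without WT replicate 3 (0.0498), over a range from 0.0200 to 0.426, and for p53/Brca1-null against WT with that pseudocount (0.0225) and without trend (0.0281), over a range from 0.0225 to 0.242. The cause was not tested.

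Counts over all genes moved more. For p53-null against WT the 1 gene called became 17 with a pseudocount of 0.1, 22 without trend, 0 with the covariate, 0 with the libraries compared alone and 0 to 8 with each library left out. For p53/Brca1-null against WT the 24 became 56, 50, 4 and 9 under these settings, 45 with quantile normalization and 3 to 73 with libraries left out. For both null genotypes the 28 became 107 with that pseudocount, 86 without trend, 1 with the covariate, 68 with the 5 FPKM filter and 4 to 83 with libraries left out. For p53/Brca1-null against p53-null 0 became 1 with the libraries compared alone and stayed at 0 to 0 with each left out. Genes with the pattern of Polr1c, 0.116% of those tested, became 0.379% at 5 FPKM and 1.29% at 1 FPKM, and 13 in place of 11 genes (0.137%) without WT replicate 1, settings chosen after seeing the data. Without WT replicate 1, 2 subunits (Polr2c and Polr2f) were lower without overlap in p53-null, and 2 higher (Polr1c and Polr3k) and 2 lower (Polr2c and Polr2j) in p53/Brca1-null.

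Libraries of the same replicate number shared only a number: their deviations from the group means correlated from -0.08 to 0.06. With the replicate block 1, 14, 0 and 15 genes were called in the comparisons of p53-null with WT, p53/Brca1-null with WT, p53/Brca1-null with p53-null and both null genotypes with WT, and Polr1c passed in the last (limma adjusted p = 0.0397). Absolute depth is unknown, so no limit can be set on what a value of 0 allows.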

Other observations

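The mitochondrial RNA polymerase gene Polrmt, which is no subunit of the nuclear enzymes, had WT values of 0, 0.00964 and 0 FPKM, p53-null values of 0, 10.1 and 1.97, and p53/Brca1-null values of 6.16, 0 and 2.75. It was the gene with the smallest p among 4 tested genes of mitochondrial transcription for both null genotypes against WT (log2 difference 1.63 ± 0.82, limma adjusted p = 0.373). Tefm, a mitochondrial elongation factor, had 0 FPKM in each WT library and 16.8, 0 and 2.38 FPKM in p53-null, with 0, 0 and 1.06 FPKM in p53/Brca1-null.

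Xpo5, the exportin of microRNA precursors and the neighbour of Polr1c on the other side from Yipf3, stood at 92.7 FPKM in WT replicate 1 and at most at 0.382 FPKM in the other 8 libraries.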
